A study of Mus musculus with 2 samples.

Results

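The collagen genes of the mouse incisor were followed through every cluster of cells that the depositors had numbered. The members were all gene symbols made of Col, a number, the letter a and a number, apart from Col1a1, Col1a2 and Col17a1. This gave 41 of the 19626 genes in the file, and 34 of the 41 had at least 200 UMIs (unique transcript counts) over all cells. Tissue around the cervical loop of the lower incisor, epithelium and mesenchyme together, was taken at postnatal day 20, dissociated with trypsin and dispase and sequenced by 10x Genomics droplets from the 3' end of transcripts. The control group was 1 mouse whose genotype is given only as Control, and the mutant group was 1 Memo1;K14CRE mouse, in which the keratin 14 promoter drives Cre in epithelium, so that mesenchyme is not its target. Each mouse gave 1 library, so no difference below has a replicate check, no test between the mice was possible, and every interval is a 95% interval that covers counting error only.

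Collagens are proteins of the extracellular matrix in which 3 chains wind into a triple helix. Fibrillar collagens build the ropes that carry tension, type IV builds the sheets of basement membranes, type VI forms beaded filaments around cells, and other types sit on fibrils, anchor epithelium, span the cell membrane or line vessels. In the incisor the pulp, the follicle and the vessels make most of this matrix, while the enamel organ is an epithelium whose ameloblasts secrete enamel proteins and rest on a basement membrane.

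The control library held 9708 cells with 79518656 UMIs and the mutant library 13820 cells with 120862385 UMIs, at medians of 2643 and 6798 UMIs per cell. The members accounted for 0.226% of UMIs in the first and 0.343% in the second. A level is given as CPM, counts per 1e6 counts of all genes in the same cells, and where 2 values or shares are joined by "and" the first is the control and the second the mutant library. Because transcripts were counted at the 3' end and not per length, levels are compared within a gene and not between genes. The clusters were 21 of all cells and 9 numbered separately within the ameloblast lineage, called lineage clusters here, and a further 8 of the all-cell clusters hold mostly the same lineage cells and are not described again. A cluster is called "X-like" only where at least 3 markers stood at least 1.5-fold above the other clusters. The other clusters are given by number, and so are some that met this limit, such as cluster 1, with 6 of 6 macrophage or monocyte markers. Free RNA in droplets gives every cell a few counts of abundant genes. The erythroid-like cluster 18, whose cells should make no collagen, is used as the reference for it. This cluster had 122 CPM of all members together in control and 216 CPM in mutant cells. Its median depth was 10660 and 11224.5 UMIs per cell. Lineage cluster 3 had 35309 and 32700.5 UMIs, and lineage cluster 0 had 1092 and 898 UMIs. The reference was not scaled to depth, so it gives a level to compare with and does not measure free RNA in each cluster. Doublets were not called, and 139 cell barcodes occurred in both libraries, 17 of them in the same cluster. Memo1 itself was at 20.3 CPM (18.8 to 22) in control lineage cells and at 17.7 CPM (16.1 to 19.5) in mutant lineage cells, but counts at the 3' end may lie outside the deleted part and check nothing.

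Promoter windows are shown for 3 members with very different reach, to show how unlike their upstream sequences are. Col3a1 was detected in all clusters of both libraries, Col13a1 reached 10 CPM in the endothelium-like clusters 8, 9 and 15 of the control library, and Col28a1 was high in the Schwann or glia-like cluster 26. Each window holds the 250 bases before the gene's start in RefSeq (GRCm38.p6), written along the gene's strand. Capitals mark TATAAA, the core of the TATA box, and ACAAAG, a core of SOX binding sites.
Col3a1, chr1:45311288-45311537, plus strand: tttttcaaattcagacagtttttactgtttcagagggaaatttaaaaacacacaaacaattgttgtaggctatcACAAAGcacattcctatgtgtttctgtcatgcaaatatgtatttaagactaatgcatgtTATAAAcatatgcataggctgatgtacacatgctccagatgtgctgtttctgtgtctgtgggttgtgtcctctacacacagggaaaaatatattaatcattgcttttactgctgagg
Col13a1, chr10:61979109-61979358, minus strand: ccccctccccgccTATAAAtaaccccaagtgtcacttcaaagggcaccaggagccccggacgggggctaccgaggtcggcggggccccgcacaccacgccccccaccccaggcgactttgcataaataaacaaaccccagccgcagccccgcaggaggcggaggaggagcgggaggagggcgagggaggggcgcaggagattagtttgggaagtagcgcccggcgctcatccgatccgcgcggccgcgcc
Col28a1, chr6:8192618-8192867, minus strand: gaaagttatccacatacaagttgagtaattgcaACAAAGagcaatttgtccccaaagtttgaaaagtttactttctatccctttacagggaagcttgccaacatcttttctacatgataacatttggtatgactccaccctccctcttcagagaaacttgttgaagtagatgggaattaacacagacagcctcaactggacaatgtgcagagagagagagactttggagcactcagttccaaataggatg
The Col13a1 window was 68.8% G and C with 24 CG dinucleotides, whereas those of Col3a1 and Col28a1 were at 35.2% and 40.4% with 0. Windows were found for 33 of the 41 members, 36 windows in all, and not for Col2a1, Col4a3, Col5a2, Col9a3, Col12a1, Col14a1, Col22a1 and Col26a1. On either strand TATAAA occurred in 11.1% of the members' windows and in 12.4% of all 32851 windows, CCAAT in 30.6% and 33.8%, and ACAAAG in 11.1% and 16.5%. The members' median content of G and C was 59% and that of all windows 52.4%. A match is a description of these letters and not a binding site.

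Most members had one cluster, or a small family of clusters, in which they stood highest, and this place was often the same in both mice. Of the 34 members with at least 200 UMIs, 21 had the same top cluster in both libraries. The interval of the top level lay apart from that of the next cluster for 18 members in the control and 22 in the mutant library, over 26 and 30 clusters ranked by level (the control library had no cells in lineage cluster 8, and its clusters 26, 27 and 28, with at most 35 cells each, were not ranked). At 10 CPM or more in at least 15 clusters were 11 members in the control and 18 in the mutant library, and in at most 3 clusters 9 and 7. These levels describe clusters that were made from the same counts, so no test was run between clusters.

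**Figure D1:**
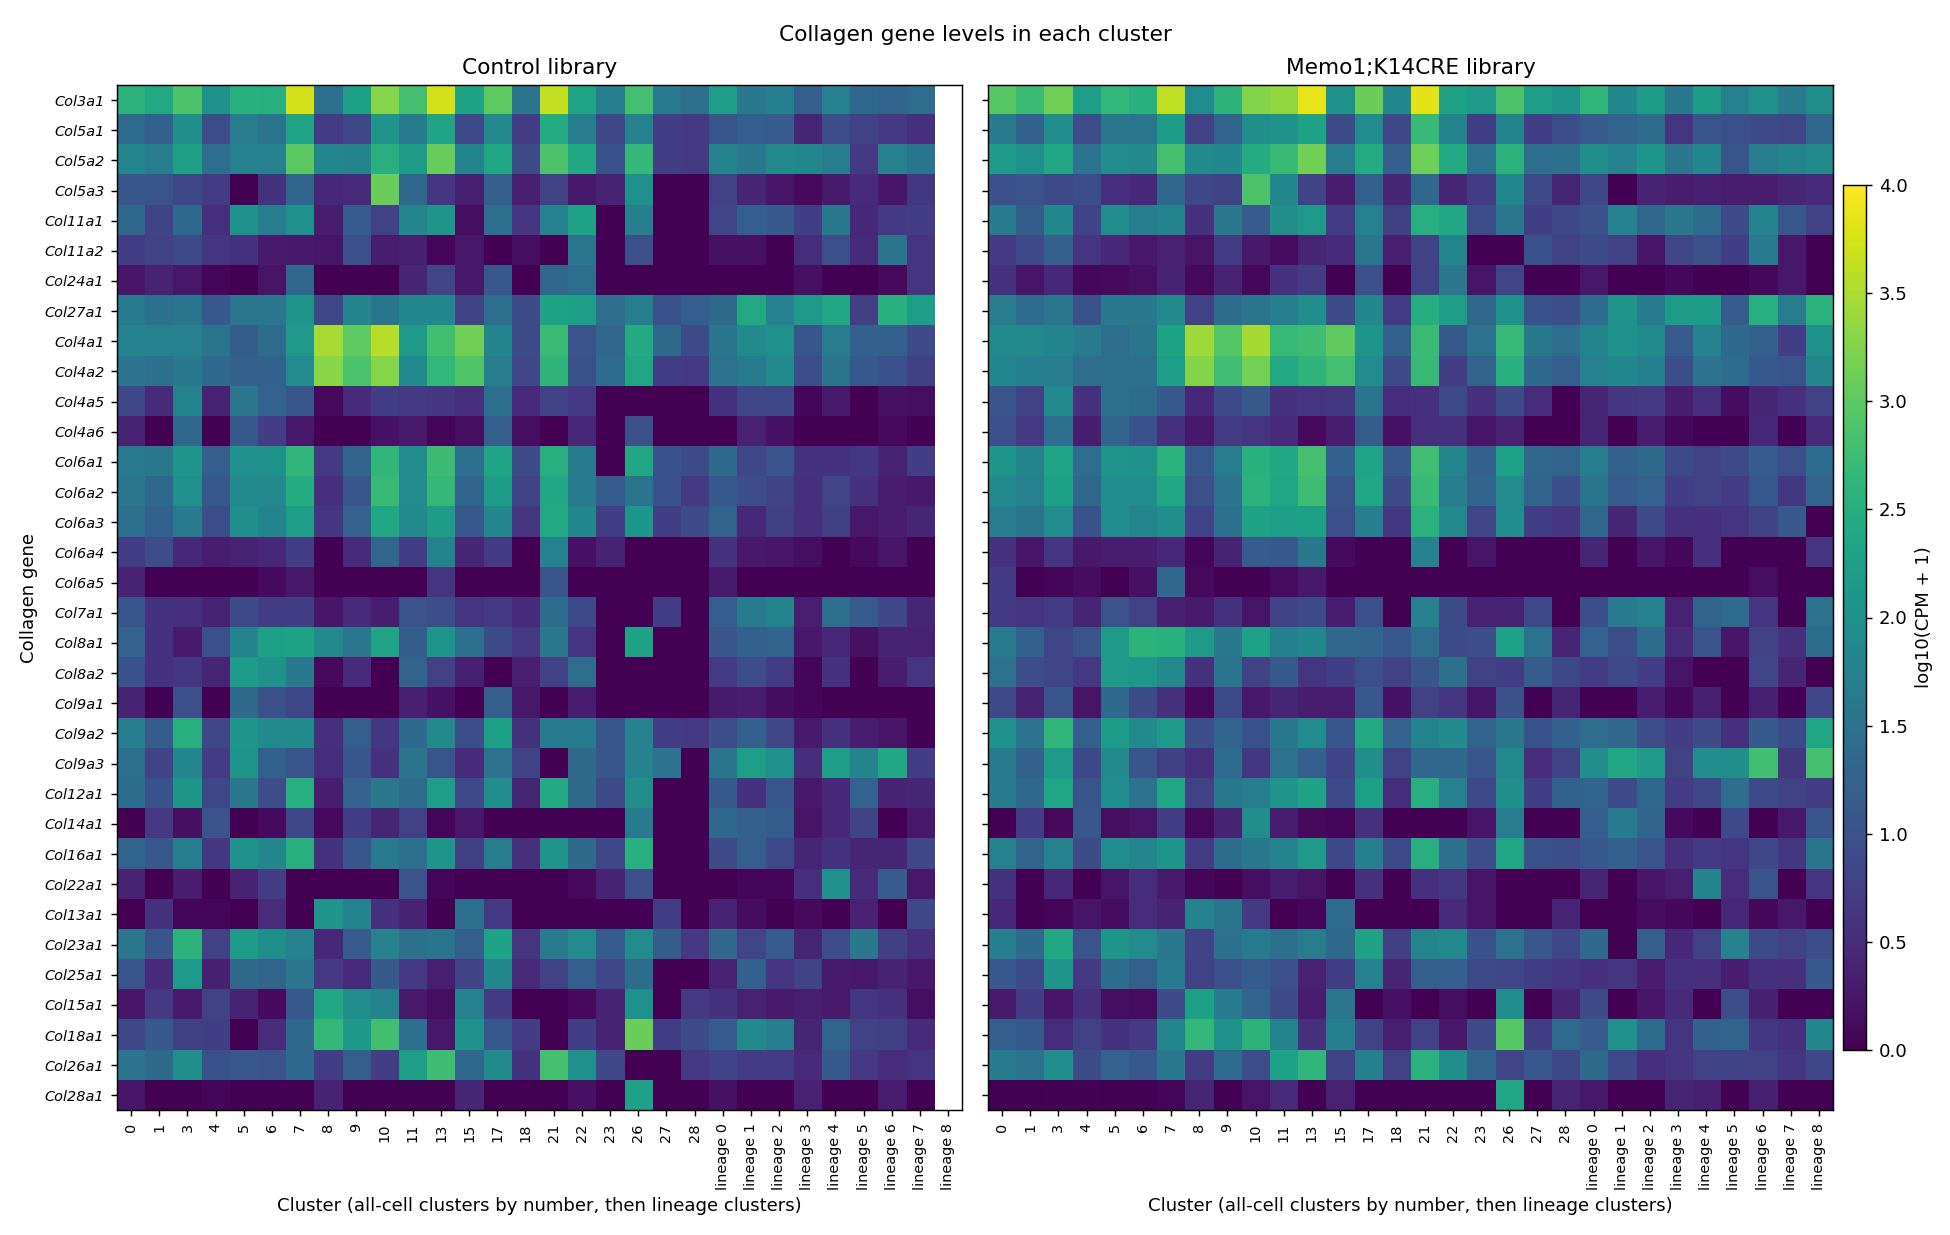
Level of the 34 members with at least 200 UMIs (one line each, grouped by class) in every cluster of the control (left) and the Memo1;K14CRE library (right), coloured by log10(CPM + 1). Col3a1 is above 10 CPM in every cluster shown, while Col28a1 stands out in cluster 26 and Col5a3 in cluster 10. Lineage cluster 8 had no control cells and is blank there.

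Among the fibrillar collagens, Col3a1 (chromosome 1, 45311538 to 45349706, plus strand, GRCm38 with GENCODE M21), the type III chain of elastic tissues, was the most counted member, with 200453 UMIs. In cluster 13, led by Bmp3, Dkk2, Lrrc15 and Col26a1, it was at 5596 CPM in control and 7086 CPM in mutant cells. In the fibroblast-like cluster 7 it was at 5447 and 4193 CPM, and in cluster 21, led by Col1a1, Cpa6 and Meg3, at 4346 and 6750 CPM. The pericyte or smooth muscle-like cluster 10 followed at 1901 and 1825 CPM. In the erythroid-like cluster 18 it was at 34.1 and 71.8 CPM, and some epithelial clusters had levels near or below these. The part of free RNA in those levels was not tested. Of cells thinned to 1000 UMIs, 97.3% and 99.1% in cluster 13 had a Col3a1 UMI, against 3.56% and 9.64% in cluster 18, where the median depth before thinning was 10660 UMIs per control cell and 11224.5 UMIs per mutant cell.

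Type V chains join type III in fibrils and set their width. Col5a2, which lies 24614 bases from Col3a1 on the opposite strand, was highest in the control library in the same 3 clusters, at 1175, 981 and 766 CPM in clusters 13, 7 and 21. In the mutant library they stood at 1419, 660 and 1290 CPM. Col5a1 was at 291 and 486 CPM in cluster 21, 220 and 163 CPM in cluster 7, and 212 and 211 CPM in cluster 13. Col5a3, the third chain of the type, had another place. It reached 1238 and 763 CPM in the pericyte or smooth muscle-like cluster 10, where 87.8% and 78.9% of its counts fell. In the control library the next of the clusters with at least 50 cells was the cycling cluster 11, at 21.6 CPM. Col5a1 stood at 122 and 92.8 CPM in cluster 10.

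Type XI chains are the partners of cartilage fibrils and occur in forming mineralized tissue. Col11a1 was at 191 and 238 CPM in the osteoblast or odontoblast-like cluster 22, 121 and 144 CPM in cluster 13, and 107 and 91.5 CPM in the dental pulp-like cluster 5, while cluster 21 had 59.3 and 328 CPM. Col11a2 was at 36.0 and 67.8 CPM in cluster 22 and at 33.9 and 45.1 CPM in lineage cluster 6, an epithelial cluster led by Dspp, Fxyd4 and Cyp26a1. Col24a1, a fibrillar collagen of bone, was at 27.2 and 38.0 CPM in cluster 22. Col27a1, a fibrillar chain made by cartilage and developing teeth, had high levels in epithelium. It stood at 343 and 321 CPM in lineage cluster 6, at 255 and 115 CPM in the outer enamel epithelium or stellate reticulum-like lineage cluster 1, at 247 and 162 CPM in lineage cluster 4, and at 140 and 151 CPM in the secretory ameloblast-like lineage cluster 3. Cluster 22 had 170 and 167 CPM of Col27a1 and cluster 21 had 198 and 310 CPM, so the epithelium was not its only place, and lineage cluster 8 of the mutant library had 356 CPM.

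Type IV collagen is the network of basement membranes, and its 6 genes lie in 3 pairs that are read in opposite directions from neighbouring starts. Col4a1 was at 3773 and 2888 CPM in the pericyte or smooth muscle-like cluster 10, and at 2944 and 2601 CPM in the endothelium-like cluster 8. The venous endothelium-like cluster 15 had 1392 and 1071 CPM and the endothelium-like cluster 9 had 1022 and 882 CPM of Col4a1. Col4a2 followed with 1859 and 1441 CPM in cluster 10, 1929 and 1793 CPM in cluster 8, 808 and 663 CPM in cluster 15 and 731 and 597 CPM in cluster 9. Across clusters the log2(CPM + 1) levels of this pair, whose starts are 21 bases apart on chromosome 8, had a Pearson r of 0.993 over 26 clusters of the control and 0.983 over 30 clusters of the mutant library. At 1000 UMIs per cell, 80.7% and 81.2% of the cells of cluster 8 with a Col4a1 UMI also had a Col4a2 UMI, against 75.7% and 74.0% of all cells of that cluster. The clusters of a library share its free RNA and depth, and such correlations carry no p.

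The other type IV chains had other places. Col4a5 was at 61.4 and 77.9 CPM in cluster 3, led by Fmod, Ifitm1 and Tnc, and at 35.6 and 27.7 CPM in the dental pulp-like cluster 5. Col4a6, whose start is 1309 bases away on the X chromosome, was at 21 and 27.8 CPM in cluster 3 and at 11.4 and 19.4 CPM in cluster 5. Their r across clusters was 0.883 and 0.885. Of thinned cells in cluster 3 with a Col4a5 UMI, 0 of 22 in the control and 1 of 84 in the mutant library also had one of Col4a6. Among all thinned cells of that cluster the share with Col4a6 was 2.11% and 3.17%. These counts are too small to compare the shares, and the part of depth in them was not tested. Col4a3 and Col4a4, the chains of kidney and lung basement membranes, had 45 and 143 UMIs over all cells and an r of 0.335 and 0.434.

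**Figure D2:**
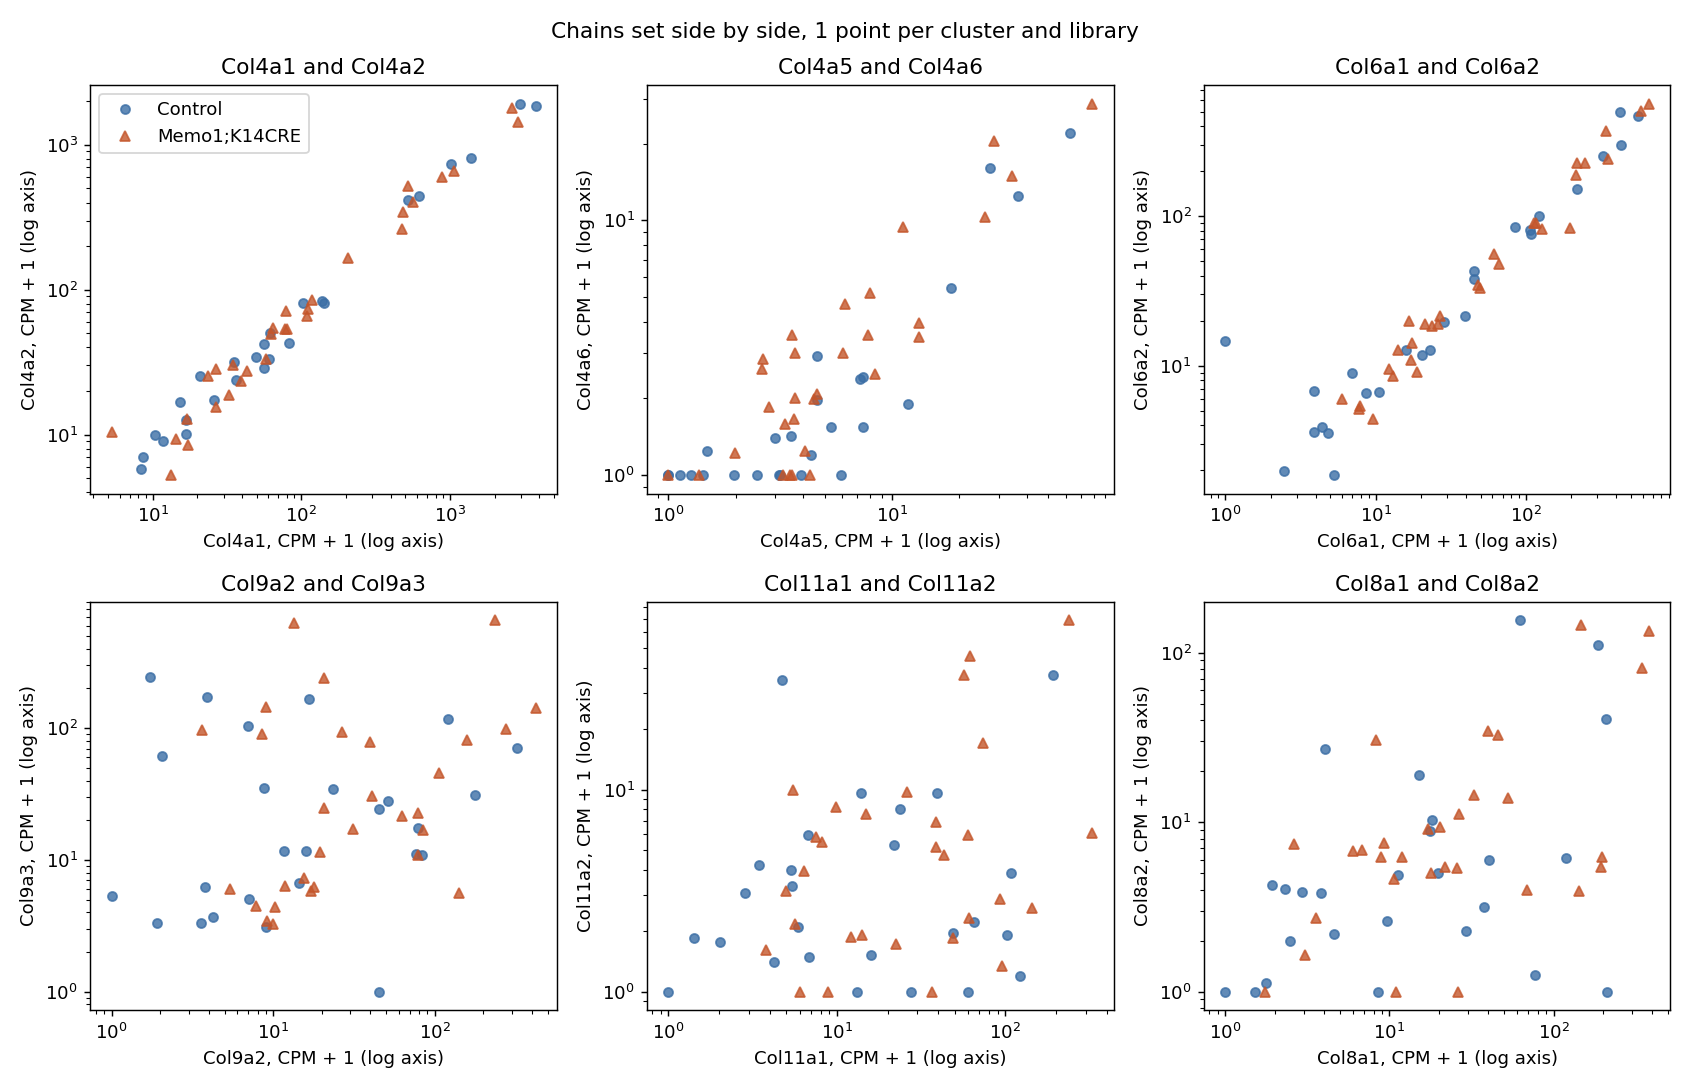
Level of one collagen chain against that of a partner chain for 6 pairs, as CPM + 1 on log axes, with circles for clusters of the control and triangles for clusters of the Memo1;K14CRE library. Col4a1 and Col4a2 lie on a line in both libraries, while Col9a2 and Col9a3 do not.

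The beaded filament chains of type VI were mesenchymal and moved together across clusters. Col6a1 was at 561 and 663 CPM in cluster 13, 426 and 352 CPM in the fibroblast-like cluster 7, and 423 and 339 CPM in the pericyte or smooth muscle-like cluster 10. Col6a2 was at 467 and 565 CPM in cluster 13 and at 494 and 371 CPM in cluster 10, and Col6a3 at 253 and 202 CPM in cluster 10 and 272 and 364 CPM in cluster 21. The r across clusters was 0.932 and 0.987 for Col6a1 with Col6a2, 0.940 and 0.911 for Col6a1 with Col6a3, and 0.959 and 0.895 for Col6a2 with Col6a3. Col6a4, one of 3 neighbouring type VI genes on chromosome 9 that can replace the third chain, was at 61.4 and 38.5 CPM in cluster 13 and 59.3 and 56.3 CPM in cluster 21. Its neighbours Col6a5 and Col6a6 had 229 and 24 UMIs in all.

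Col7a1 encodes the anchoring fibrils that fasten an epithelium to the tissue beneath it. It was at 60.6 and 55.8 CPM in lineage cluster 2, led by Pi15 and Igfbp2, and at 41.5 and 42.7 CPM in the outer enamel epithelium or stellate reticulum-like lineage cluster 1. Cluster 21 had 24.7 and 53.8 CPM of Col7a1, from 5 and 21 counts. The short-chain collagens of type VIII, known from vessel walls and the cornea, were shared by pulp, fibroblasts and vessels. Col8a1 was at 186 and 382 CPM in the dental pulp-like cluster 6, 207 and 344 CPM in cluster 7, and 212 and 196 CPM in cluster 10. Col8a2 was at 154 and 145 CPM in the dental pulp-like cluster 5 and 109 and 133 CPM in cluster 6. Col10a1, the marker of cartilage cells before mineralization, had 45 UMIs in all, and Col2a1, the main cartilage collagen, had 41.

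Type IX collagens sit on the surface of fibrils, and their chains had different places. Col9a2 was at 321 and 421 CPM in cluster 3 and 178 and 275 CPM in cluster 17, led by Igf2 and Fmod. Col9a3 was highest in epithelium, with 242 and 623 CPM in lineage cluster 6, 166 and 240 CPM in lineage cluster 1, 171 and 89.7 CPM in lineage cluster 4 and 102 and 145 CPM in lineage cluster 2, against 69.4 and 141 CPM in cluster 3. Col9a2 and Col9a3 had an r across clusters of 0.134 and 0.332. Col9a1, the other partner, was at 22.8 and 22.3 CPM in the dental pulp-like cluster 5 and had an r of 0.772 and 0.790 with Col9a2. Lineage cluster 8, led by Dcpp2, Ces1d, Mia and Col9a2, held 91 cells of the mutant library and none of the control. It had 658 CPM of Col9a3 and 234 CPM of Col9a2, and 60.9% of its thinned cells with a Col9a2 UMI had one of Col9a3, against 45.1% of all its cells. In cluster 3 the same share was 9.38% and 23.5%, against 6.34% and 14% of all its cells.

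The other collagens that attach to fibrils ranged from wide to narrow. Col12a1, found in tissue under tension, was at 328 and 227 CPM in the fibroblast-like cluster 7 and 277 and 325 CPM in cluster 21. Col16a1 was at 328 and 125 CPM in cluster 7 and 119 and 323 CPM in cluster 21. Col14a1 was low in control cells, where its highest level among ranked clusters was 21.9 CPM in lineage cluster 0. It was at 15.6 and 42.7 CPM in lineage cluster 1 and 13.9 and 18.1 CPM in lineage cluster 2. In the mutant library it was highest in cluster 10, at 94.4 CPM, and next in cluster 26, at 48.9 CPM. Col22a1, known from junctions between tissues, was narrow, at 106 and 62.3 CPM in lineage cluster 4, led by Igfbpl1, Col22a1, Vwde and haemoglobin genes, and at 13.3 and 9.51 CPM in lineage cluster 6. In the mutant library the 20 cells of lineage cluster 4 with a Col22a1 UMI had 358 CPM of Vwde, against 71.5 CPM in the 203 others. They had 615 CPM of Cyp26a1, against 154 CPM, and 48.1 CPM of Dspp, against 16.3 CPM. The other genes of the preameloblast list were at 5.35 CPM for Vat1l and 0 for Phlda2, against 9.75 and 3.25 CPM. Depth was not matched between these cells, and the values describe 1 library. Col19a1 and Col20a1 had 134 and 126 UMIs over all cells.

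Of the transmembrane collagens one was endothelial and the others were highest in cluster 3. Col13a1 was at 119 and 62.6 CPM in the endothelium-like cluster 8, 60.2 and 34.8 CPM in the endothelium-like cluster 9 and 27.5 and 24.2 CPM in the venous endothelium-like cluster 15. Col23a1 was at 384 and 236 CPM in cluster 3, 212 and 203 CPM in cluster 17 and 157 and 130 CPM in cluster 5. Col25a1, which motor axons need to reach muscle, was at 146 and 124 CPM in cluster 3 and 71.8 and 58.3 CPM in cluster 17, and its r with Col23a1 across clusters was 0.717 and 0.665.

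Among the multiplexins, collagens of vessel and nerve basement membranes that carry sugar chains, Col15a1 was at 246 and 188 CPM in the endothelium-like cluster 8. Col18a1, the source of endostatin, was at 1276 and 902 CPM in the Schwann or glia-like cluster 26, 619 and 387 CPM in cluster 10 and 458 and 449 CPM in cluster 8. The epithelium of lineage cluster 1 had 80.7 and 107 CPM of Col18a1. Col26a1, a collagen first described in testis and ovary, was at 575 and 433 CPM in cluster 13 and 667 and 358 CPM in cluster 21. Col28a1, known from Schwann cells of peripheral nerve, was at 193 and 225 CPM in cluster 26, in 9 of 17 control and 54 of 105 mutant cells, and at most at 2.02 CPM in any other cluster.

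Between the mice, collagen genes were more often higher than lower in the mutant library. The 26 clusters with at least 50 cells in each library were compared. A gene was measured in a cluster with at least 20 counts in both libraries together and 10 CPM in the higher library, and is called higher or lower below where the ratio of mutant to control CPM was at least 2 or at most 0.5 and its exact conditional interval of 2 Poisson counts excluded 1. Of 400 measured pairs of a member and a cluster, 98 (24.5%) were higher and 10 (2.5%) lower. Over all genes 3.44% of pairs were higher and 2.02% lower. Outside the lineage 72 of 308 pairs were higher (23.4%, all genes 2.86%) and 7 lower (2.27%, all genes 1.63%), and within it 26 of 92 were higher (28.3%, all genes 4.72%) and 3 lower (3.26%, all genes 2.89%). Pairs of 1 member in several clusters, and chains made by the same cells, are not independent.

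These counts changed when cells were thinned and when clusters were left out, and the part of depth in this was not tested. In 8 clusters (0, 1, 9, 11, 17 and 21 and lineage clusters 0 and 4) 3 times the median UMI count per cell was still below the median of the library in at least 1 of the libraries. Without these clusters 46 of 256 pairs were higher (18%, all genes 2.87%) and 8 lower (3.125%, all genes 1.96%). Thinned to 1000 UMIs per cell, 39 of 230 measured pairs were higher (17%, all genes 2.84%) and 7 lower (3.04%, all genes 2.09%). Among pairs with a mean of at least 100 CPM, 22 of 115 were higher (19.1%, all genes 1.53%) and 3 lower (2.61%, all genes 1.64%). In the erythroid-like cluster 18, 5 of 6 measured members were higher (all genes 5.88%), namely Col3a1, Col4a1, Col5a2, Col8a1 and Col9a2. Without these 5 members and without cluster 18, 67 of 289 pairs were higher (23.2%, all genes 3.42%). The part of free RNA in these ratios was not tested.

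**Figure D3:**
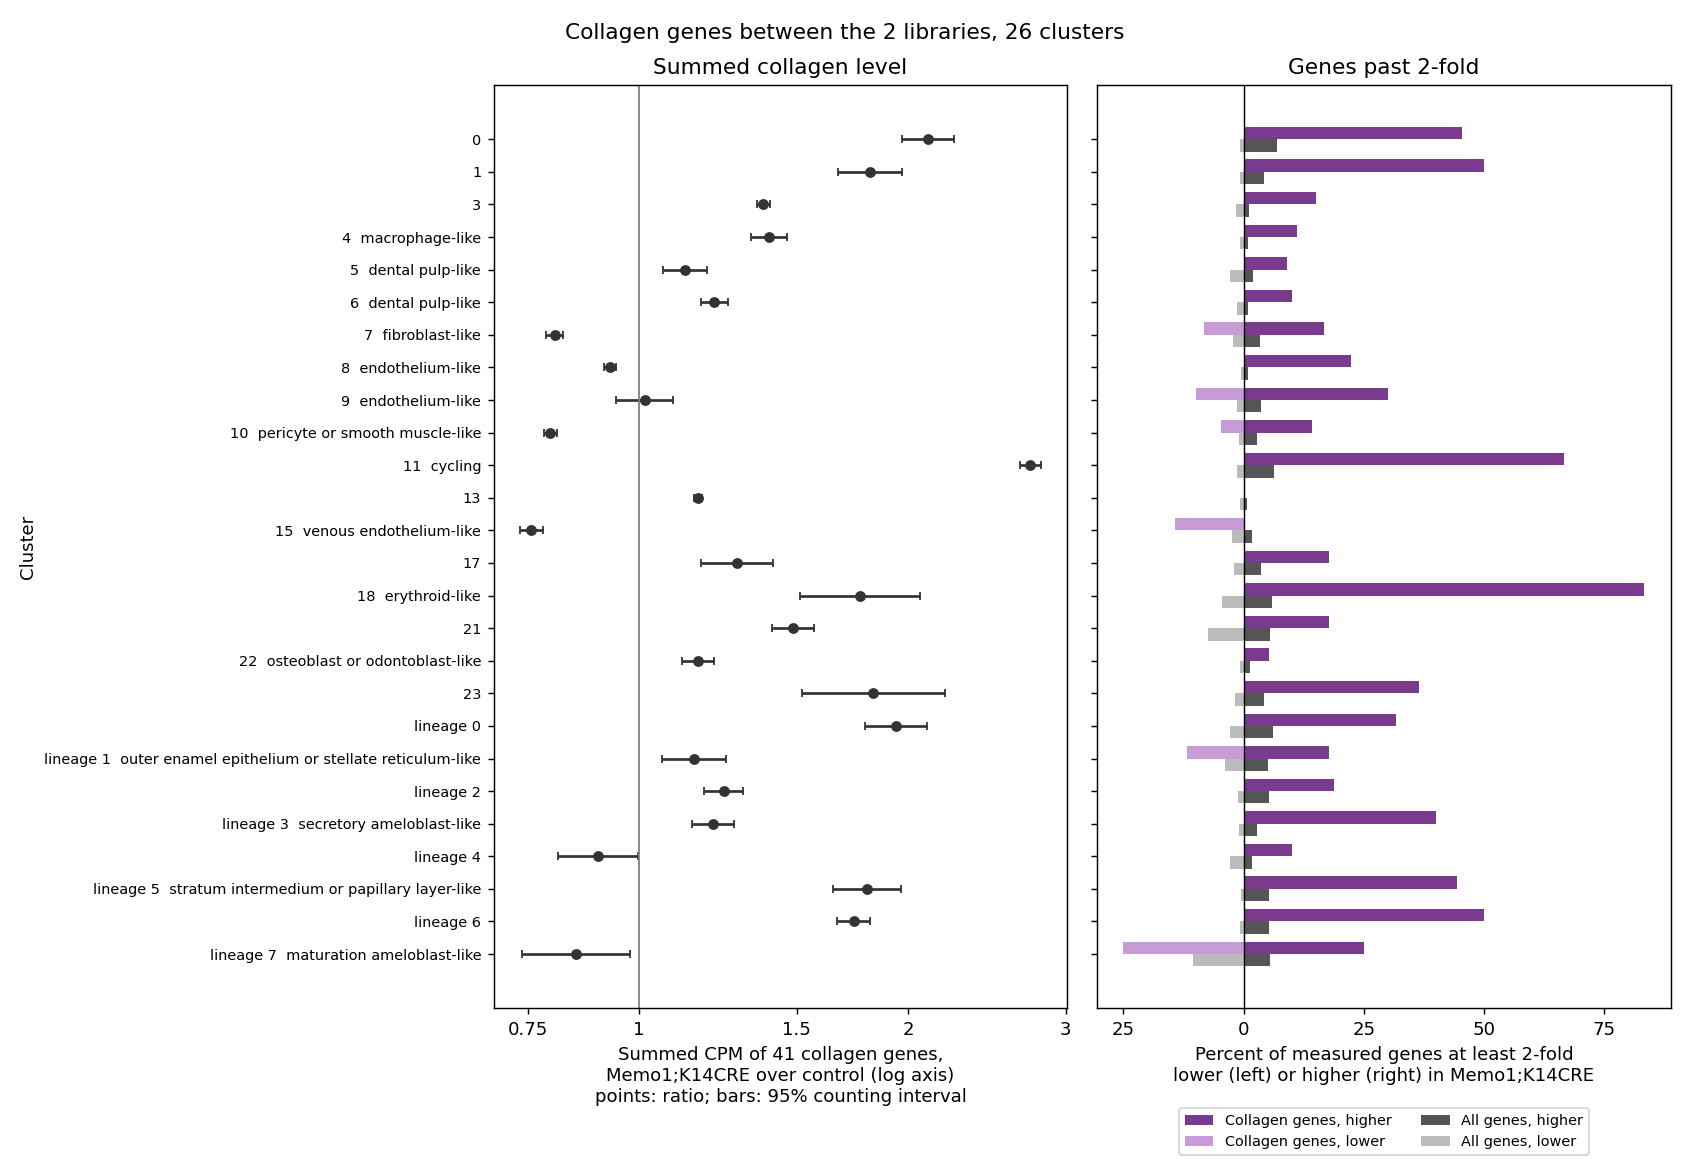
Left, the ratio of the summed CPM of all 41 members, mutant over control, in each of 26 clusters with its 95% counting interval, on a log axis. Right, the percent of measured members and of all measured genes that were higher or lower in the mutant library. Clusters 7, 8, 10 and 15 and lineage clusters 4 and 7 have intervals wholly below 1, and 19 clusters wholly above. Among these 25 clusters the ratio turned under 1 alternative setting to the other side of 1 in cluster 5 and in each of lineage clusters 3, 4 and 7.

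The ratio of mutant to control for the sum of all 41 members was above 1 in 20 of 26 clusters, with 19 intervals wholly above and 6 wholly below 1, and a median ratio of 1.23. In 4 of the clusters whose interval excluded 1 the direction turned under an alternative setting, to 1.53 in lineage cluster 4 as means over cells, 1.09 in lineage cluster 7 under stricter cell limits, 0.925 in cluster 5 in thinned cells and 0.980 in lineage cluster 3 without the deepest 5% of cells. In the endothelium-like cluster 9, whose interval included 1, the ratio was 1.01 and came to under 1 with 4 settings (TMM factors, median-of-ratios factors, stricter cell limits and thinned cells). The 6 below included fibroblast-like and vessel clusters. The ratio was 0.804 (0.788 to 0.821) in the fibroblast-like cluster 7, 0.795 (0.782 to 0.809) in the pericyte or smooth muscle-like cluster 10, 0.928 (0.914 to 0.943) in the endothelium-like cluster 8 and 0.758 (0.735 to 0.780) in the venous endothelium-like cluster 15. A sum follows its most counted members, and classes within it went both ways. In cluster 8 type IV made up 4875 and 4398 CPM of the summed 5916 and 5491 CPM, a ratio of 0.902. The ratio there was 1.70 for fibrillar chains and 2.61 for type VI. Type VI was at 9.76 and 25.5 CPM, near the 16.8 and 23.2 CPM of the erythroid-like cluster 18. Fibrillar chains were at 110 and 186 CPM, against 57.4 and 105 CPM in cluster 18. Cluster 7 had 0.749 for fibrillar chains and 1.65 for type IV. Cluster 10 had 0.771 for type IV and 2.28 for collagens that attach to fibrils. The latter were at 87.5 and 200 CPM, and Col14a1 alone was at 94.4 CPM in the mutant cells. The ratio of 2.28 therefore does not describe that class as a whole. In cluster 13 the ratio of the sum was 1.16 (1.15 to 1.18), with 0 of 18 measured members higher and 0 lower (all genes 0.749% and 0.679%). The highest ratio was 2.74 (2.66 to 2.81) in the cycling cluster 11, where 14 of 21 members were higher (all genes 6.3%). In that cluster the summed markers of dental epithelium were at 1064 and 528 CPM and those of pericytes at 394 and 2153 CPM. Their part in the result was not tested. Without cluster 11, cluster 22 and lineage cluster 6, which were chosen after seeing the data, 77 of 348 pairs were higher (22.1%, all genes 3.32%) and 10 lower (2.87%, all genes 2.17%). Summed markers of other cell types also differed between the libraries in clusters that were kept, such as clusters 7 and 8 below.

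Counted by gene, Col3a1 was higher in 12 of 26 clusters and lower in 0, Col11a1 higher in 10 of 19, Col6a1 in 9 of 22, Col6a2 in 8 of 20, Col12a1 in 7 of 16, Col8a1 in 6 of 15 and Col9a2 in 6 of 19, with 0 lower for each. Over all genes 3.44% of pairs were higher and 2.02% lower. The counts of Col3a1, Col8a1 and Col9a2 include the erythroid-like cluster 18. Col15a1 was higher in 0 and lower in 2 of 5 clusters, and Col27a1 higher in 2 and lower in 3 of 23. Col7a1, the anchoring fibril gene, was past 2-fold in 0 of 6 clusters and Col13a1 in 0 of 3. With the shares of all genes this low, 0 of so few clusters does not set these genes apart. In the outer enamel epithelium or stellate reticulum-like lineage cluster 1, Col7a1 had a ratio of 1.03 (0.659 to 1.55), and in lineage cluster 2 of 0.921 (0.756 to 1.12).

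Col11a1 had its widest ratios in 2 clusters of the ameloblast lineage. In lineage cluster 6 it was at 3.69 CPM in the control library, from 15 counts in 6 of 143 cells, and at 61.0 CPM in the mutant, from 295 counts in 85 of 163 cells, a ratio of 16.5 (9.86 to 29.9). In the secretory ameloblast-like lineage cluster 3 it was at 4.43 CPM, with 34 counts in 15 of 223 cells, and at 37.9 CPM, with 347 counts in 135 of 286 cells, a ratio of 8.56 (6.01 to 12.6). The control levels of both were near those of the erythroid-like cluster, which were 3.21 and 4.63 CPM, and the mutant levels were well above them. Among mesenchymal clusters, Col11a1 was at 22.6 and 72.2 CPM in cluster 3, where 107 of 473 and 541 of 1136 cells had a UMI, a ratio of 3.19 (2.68 to 3.82). In cluster 21 the ratio was 5.53 (3.06 to 11). In the fibroblast-like cluster 7 it went the other way, at 102 and 59.8 CPM, a ratio of 0.588 that did not reach 2-fold. Col11a2, its partner, was higher in cluster 3, at 7.02 and 16 CPM, a ratio of 2.27, and not in lineage cluster 6. The r of Col11a1 and Col11a2 across clusters was 0.146 in the control and 0.352 in the mutant library.

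**Figure D4:**
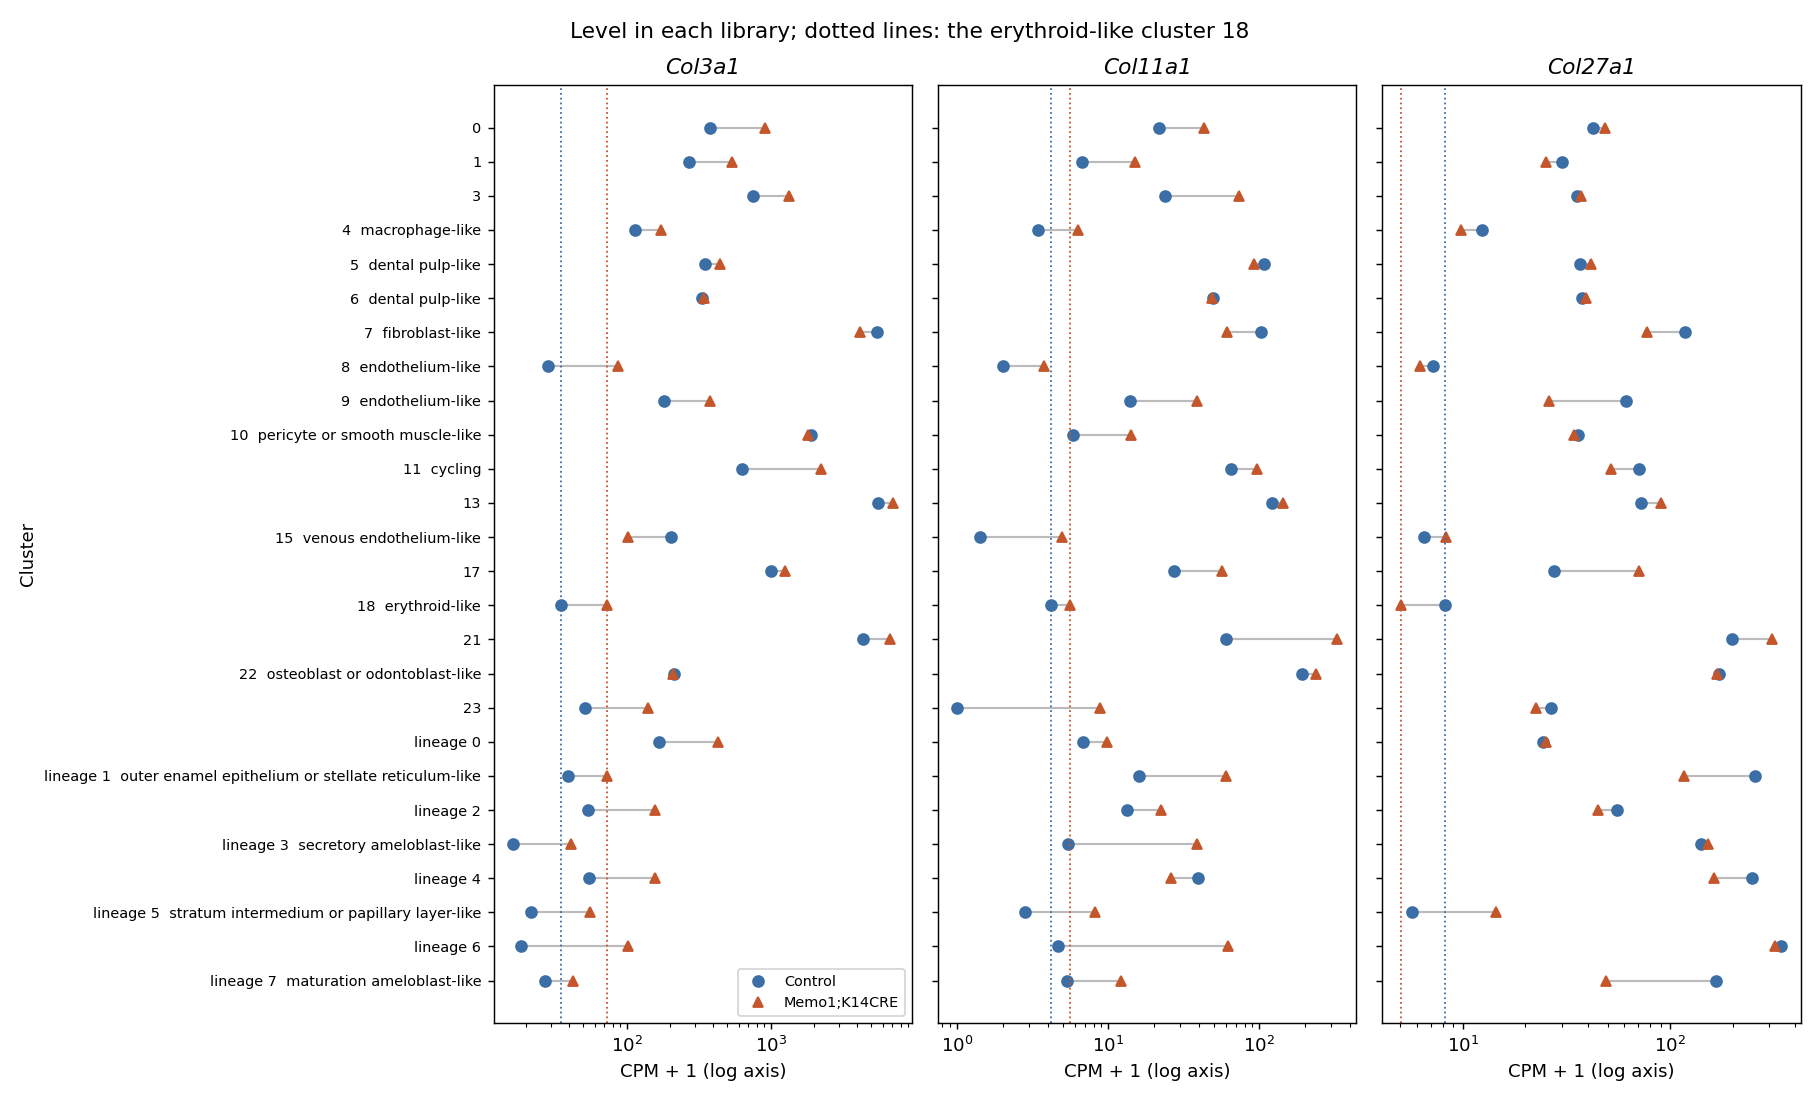
Levels of Col3a1, Col11a1 and Col27a1 as CPM + 1 (log axis) in each of 26 clusters, with circles for the control and triangles for the Memo1;K14CRE library, joined by a line, and dotted lines at the levels of the erythroid-like cluster 18. In lineage cluster 6 Col11a1 lies at 3.69 and 61.0 CPM, and in lineage cluster 7 Col27a1 lies at 165 and 48.2 CPM.

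In lineage cluster 6, 6 of 12 measured members were higher and 0 lower (all genes 5.31% higher). Col9a3 was at 242 and 623 CPM, a ratio of 2.58 (2.40 to 2.77), with 117 of 143 and 127 of 163 cells holding a UMI. Col3a1 was at 17.5 and 101 CPM, Col6a1 at 1.47 and 13 CPM, Col6a2 at 0.983 and 11.8 CPM, and Col9a2 at 0.737 and 12.4 CPM. For these 4 genes the mutant erythroid-like cluster had 71.8, 12.2, 7.53 and 16.8 CPM, so that Col6a1, Col6a2 and Col9a2 lay near or below that level, and Col9a3 was at 5.21 CPM there. Without the deepest 5% of cells the ratio of Col9a2 came to 0.625. The 7 fibroblast markers summed to 28.3 and 418 CPM in this cluster, with Dpt, Pi16 and Mfap5 at 0 counts in both, and the 5 dental epithelium markers to 3460 and 4237 CPM. The part of the fibroblast markers' cells in the result was not tested.

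In the secretory ameloblast-like lineage cluster 3, 2 of 5 members were higher (all genes 2.78%). Beside Col11a1 this was Col3a1, at 15.2 and 40.3 CPM, both below the erythroid-like level of the same library. In the stratum intermedium or papillary layer-like lineage cluster 5, 4 of 9 were higher (all genes 5.2%), among them Col18a1 at 4.97 and 18.7 CPM and Col27a1 at 4.71 and 13.5 CPM, whose ratio came to 0.404 in thinned cells. In lineage cluster 2, 3 of 16 were higher (all genes 5.25%), Col3a1, Col6a1 and Col6a2, and the ratio of Col6a1 came to 0.358 in thinned cells. Summed fibroblast markers there were at 133 and 209 CPM.

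Col27a1 was lower in other epithelial clusters. In the maturation ameloblast-like lineage cluster 7 it was at 165 and 48.2 CPM, in 76 of 187 and 25 of 78 cells, a ratio of 0.291 (0.216 to 0.386). At 1000 UMIs per cell 14.4% of control and 1.72% of mutant cells had a Col27a1 UMI. This was the 1 member lower of 4 measured there (all genes 10.5% lower), and the summed dental epithelium markers were at 3831 and 1857 CPM in the same cells. In lineage cluster 1 Col27a1 was at 255 and 115 CPM, a ratio of 0.451 (0.349 to 0.573), with 75 mutant cells behind it. Here 2 of 17 members were lower (all genes 3.79%), and the other was Col25a1, at 16.1 and 3.29 CPM. In lineage cluster 6, where Col27a1 was highest in the control library, it was at 343 and 321 CPM, and in lineage cluster 3 at 140 and 151 CPM.

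In the pulp, Col8a1 and Col12a1 were higher in both dental pulp-like clusters. Col8a1 was at 186 and 382 CPM in cluster 6, a ratio of 2.06 (1.88 to 2.26), and at 61.3 and 147 CPM in cluster 5, a ratio of 2.39 (1.77 to 3.32). Col12a1 was at 7.86 and 31.4 CPM in cluster 6, and at 37.1 and 86.1 CPM in cluster 5. These were the 2 members past 2-fold of 20 in cluster 6 (all genes 0.999% higher) and of 22 in cluster 5 (all genes 1.94%), and cluster 5 had only 92 control cells against 1352 mutant cells. Col8a2, the partner chain, was at 109 and 133 CPM in cluster 6 and at 154 and 145 CPM in cluster 5. In the osteoblast or odontoblast-like cluster 22, Col12a1 was the 1 member of 19 past 2-fold (all genes 1.32%), at 23 and 53.8 CPM. Summed osteoblast markers were at 1937 and 7055 CPM there.

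In vessels and fibroblasts single members moved in both directions. Col14a1, a collagen of fibril surfaces, was at 1.63 CPM in the control cells of the pericyte or smooth muscle-like cluster 10, from 3 counts in 3 of 212 cells, and at 94.4 CPM in the mutant, from 417 counts in 62 of 551 cells, a ratio of 57.9 (19.7 to 282). In the mutant library the 62 cells with Col14a1 had 11829 CPM of Acta2 and 1818 CPM of Myh11, genes of smooth muscle, against 4177 and 624 CPM in the 489 without, and 6951 CPM of Tagln against 2302 CPM. Rgs5, Kcnj8 and Notch3, the other genes of that marker list, were at 11432, 60.8 and 612 CPM against 17718, 267 and 757 CPM. Of the 7 fibroblast markers, Mfap5, Dcn and Pdgfra were at 172, 206 and 14.3 CPM in those cells against 0.777, 37.8 and 9.59 CPM, Lum and Sfrp2 at 78.7 and 57.3 CPM against 85.8 and 97.7 CPM, and Dpt and Pi16 at 0 in both. Col15a1 was lower in cluster 10, at 61.4 and 19.5 CPM, a ratio of 0.317 (0.237 to 0.423), and in the endothelium-like cluster 9, at 90.4 and 41.8 CPM. In cluster 10, 3 of 21 members were higher (all genes 2.69%) and 1 lower (all genes 1.06%).

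In the fibroblast-like cluster 7, 4 of 24 members were higher (all genes 3.3%) and 2 lower (all genes 2.24%). Col6a5 was at 0.900 CPM in the control, from 1 count in 1 of 102 cells, and at 21.4 CPM in the mutant library, from 180 counts in 81 of 770 cells, a ratio of 23.8 (4.21 to 944). The mutant cells with Col6a5 had 24346 CPM of the fibroblast marker Sfrp2, against 9739 CPM in the other 689, and 185 CPM of Pdgfra against 172 CPM. The other 5 fibroblast markers were lower in them, with Dcn at 115 CPM against 1365 CPM, Lum at 104 CPM against 547 CPM, and Dpt, Pi16 and Mfap5 at 0 against 7.07, 10 and 26.1 CPM. Col16a1 was at 328 and 125 CPM, a ratio of 0.383 (0.339 to 0.432), and Col24a1 at 21.6 and 1.43 CPM, a ratio of 0.0661 (0.0301 to 0.137), from 24 and 12 counts. For Col18a1, at 22.5 and 68.6 CPM, 52.0% of the control counts came from 1 cell. The summed fibroblast markers of this cluster were at 6863 and 13264 CPM and the pericyte markers at 287 and 1621 CPM, and their part in these ratios was not tested.

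In cluster 3, 3 of 20 members were higher (all genes 1.1%), namely Col9a3, Col11a1 and Col11a2. Cluster 21 had 3 of 17 (all genes 5.45%), with Col16a1 at 119 and 323 CPM, and cluster 17 had 3 of 17 (all genes 3.69%), with Col9a3 at 30.2 and 97.2 CPM. In the macrophage-like cluster 4 only Col9a2 of 9 was higher (all genes 0.966%), at 6.08 and 14.5 CPM, below the mutant erythroid-like level. In cluster 23, led by Jchain and Chil3, 4 of 11 were higher (all genes 4.32%). Among them Col6a1 had 0 control counts and 15.8 CPM in mutant cells, a ratio of 3.47 against a floor of 3 control counts.

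In the endothelium-like cluster 8, 2 of 9 were higher (all genes 0.982%), Col3a1 at 27.2 and 85.9 CPM and Col6a1 at 3.85 and 11.2 CPM. The erythroid-like cluster had 34.1 and 71.8 CPM of Col3a1 and 7.62 and 12.2 CPM of Col6a1. Summed fibroblast markers in cluster 8 were at 33.4 and 246 CPM, and their part in the result was not tested. In the endothelium-like cluster 9, 6 of 20 were higher (all genes 3.59%) and 2 lower (all genes 1.31%). In the venous endothelium-like cluster 15, 2 of 14 were lower (all genes 2.47%), Col18a1 at 111 and 52.5 CPM and Col26a1 at 20.7 and 5.63 CPM, and 1 control cell held 76% of the control Col26a1 counts. Without the deepest 5% of cells these ratios came to 1.10 and 1.55. Col13a1, the endothelial transmembrane member, had a ratio of 0.524 (0.461 to 0.595) in cluster 8.

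Among the 8 clusters of low depth named above, cluster 0, led by Ldhb, Crabp1 and Pcp4, had 10 of 22 higher (all genes 6.99%), with Col16a1 at 18.6 and 56.8 CPM, and its summed fibroblast markers were at 845 and 2755 CPM. Cluster 1, led by Aif1 and Tyrobp and with 6 of 6 macrophage or monocyte markers up, had 9 of 18 members higher (all genes 4.18%). Col8a1 was at 2.84 and 16.2 CPM there. In lineage cluster 0, led by Pmch and haemoglobin genes, 6 of 19 were higher (all genes 6.06%), with Col26a1 at 5.35 and 23.3 CPM, and in lineage cluster 4 only Col3a1 of 10 (all genes 1.7%), at 53.6 and 157 CPM. The part of depth in these counts was not tested.

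Of the lineage clusters outside those 8, the outer enamel epithelium or stellate reticulum-like lineage cluster 1 had 3 of 17 higher (all genes 5.11%), among them Col11a1 at 14.9 and 59.1 CPM from 8 mutant cells. Lineage cluster 7 had 1 of 4 higher (all genes 5.56%), Col11a1 at 4.32 and 11.2 CPM, whose ratio came to 0.633 as a mean over cells.

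Genes that make, process, crosslink, break down or bind collagen were counted by the same rule. There were 56 in the file, with 865 measured pairs, of which 73 (8.44%) were higher and 16 (1.85%) lower. The 18 genes of chain modification and folding had 15 higher and 5 lower of 362 pairs, shares of 4.14% and 1.38% against 3.44% and 2.02% of all genes. The 12 genes of procollagen export and processing had 5 higher and 4 lower of 181, shares of 2.76% and 2.21% near those of all genes. The 7 crosslinking genes had 10 higher and 2 lower of 69 (14.5% and 2.9%), and the 9 receptors 8 higher and 0 lower of 83 (9.64% higher). The 10 genes of breakdown and uptake had 35 higher and 5 lower of 170 (20.6% and 2.94%). Mmp13, the main collagenase of mice, gave 10 of those 35. It was at 456 and 1148 CPM in the fibroblast-like cluster 7, a ratio of 2.52 (2.30 to 2.76), at 0.730 and 70.7 CPM in lineage cluster 2 and at 0.246 and 15.3 CPM in lineage cluster 6. In the venous endothelium-like cluster 15 Mmp13 was lower, at 21.6 and 2.81 CPM, and in the erythroid-like cluster it had 2 and 4 counts.

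Some genes of these lists were past 2-fold in the following clusters. In lineage cluster 7, 5 of 23 measured processing genes were lower (all genes 10.5%) and 0 higher (all genes 5.56%). In the maturation ameloblast-like lineage cluster 7, Plod2, a lysyl hydroxylase, was at 97.6 and 34.4 CPM, a ratio of 0.353 (0.245 to 0.495), and Bmp1, the procollagen C-proteinase, at 71.7 and 18.9 CPM, a ratio of 0.264. P3h2, a prolyl hydroxylase, was at 39.3 and 4.30 CPM there. In the osteoblast or odontoblast-like cluster 22, Lox, a crosslinking enzyme, was at 4.99 and 30.3 CPM and its relative Loxl2 at 51.0 and 19.6 CPM. In lineage cluster 6, Mmp2, a gelatinase, was at 1.97 and 14.3 CPM, while Plod2, at 2679 and 2832 CPM, was not past 2-fold.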

How the data were processed

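Single cells from 1 control and 1 mutant mouse were analysed from the deposited table of whole-number UMI counts per gene and cell. Per the submitters' processing notes the authors used Cell Ranger and Seurat 3 with mm10, and the Cell Ranger version is not given in the sources used here. The authors' cluster numbers were taken from the deposited cell table, where cells hold 501 to 49967 UMIs. The clusters carried no names, and names here rest on markers. Counts were summed by cluster and library and divided by the total to give CPM. Ratios have exact conditional intervals of 2 Poisson counts, shares Clopper-Pearson intervals and levels exact Poisson intervals, all at 95%. A gene at 0 counts was set against a floor of 3 counts and given no ratio where the other library did not exceed it. With 1 library per group no p-values were computed. The members, the gene lists and the rules were chosen with earlier results of these data known.

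Members with at least 200 UMIs were named with their levels across clusters. Between libraries up to 6 members and 4 processing genes each way were named per cluster, ordered by how far the nearer bound lay from 1. Partner chains and values beside them (marker sums, cells with a UMI, erythroid-like levels) were also given, and Col11a1 in cluster 7, Col7a1 and Plod2 and Mmp13 values outside that order were chosen after they were seen. Of the 57 listed processing genes 56 were in the file. A cell type name also needed leading genes that do not go against it. The 10 leading genes of a cluster had at least 50 CPM there and the greatest fold over other clusters. Positions come from GENCODE M21 and promoters from RefSeq GRCm38.p6.

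Alternatives were TMM factors (edgeR 4.0.16), median-of-ratios factors (DESeq2 1.42.0), stricter cell limits (1000 UMIs, 500 genes, 10% mitochondrial counts), means of per-cell CPM, cells thinned to 1000 UMIs, dropping the deepest 5% of cells or the top cell, and no filter on low counts. 3 counts, each without some clusters or members, were added after seeing the data. On simulated counts for 19626 genes with 200 changed 3-fold, the rule recovered 99.5% in cluster 10 and 100% in lineage cluster 3, and called 0.423% and 0.0174% of unchanged genes. Only counting error was simulated. The changed genes were drawn from levels above the 10 CPM limit of a measured gene, and clusters with fewer counts were not simulated. The recovery therefore does not apply to low genes or to such clusters. Python 3.11.15, numpy 2.4.6, pandas 2.3.3, scipy 1.17.1, matplotlib 3.10.9 and R 4.3.3 were used.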

Additional observations from a re-analysis of the deposited data

Results flagged for a closer look

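For 4 members the difference between the libraries pointed in opposite directions in different clusters, and the difference between the clusters was not tested. Col16a1 was higher in the mutant library in cluster 0, with a ratio of 3.06, and lower in the fibroblast-like cluster 7, with a ratio of 0.383. Col18a1 was higher in the stratum intermedium or papillary layer-like lineage cluster 5, at 3.77, and lower in the venous endothelium-like cluster 15, at 0.472. Col26a1 was higher in lineage cluster 0, at 4.36, and lower in cluster 15, at 0.272, where 1 control cell held 76% of its control counts. Col27a1 was higher in lineage cluster 5, at 2.87, and lower in the maturation ameloblast-like lineage cluster 7, at 0.291. For 3 of them 1 of the opposing directions turned under an alternative setting. Col27a1 in lineage cluster 5 came to 0.802 as a mean over cells and to 0.404 in thinned cells. Col18a1 in cluster 15 came to 1.10 without the deepest 5% of cells, and Col26a1 there to 1.55, and to 2.96 in thinned cells. Cluster 0 and lineage cluster 0 are among the shallow clusters.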

How the results depend on the processing

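TMM factors, median-of-ratios factors, stricter cell limits, means of per-cell CPM, and leaving out the deepest cells or the top cell gave 72 to 93 members higher (20% to 24.3% of those measured, all genes 2.77% to 5.51%) and 10 to 14 lower (2.55% to 3.99%, all genes 1.95% to 3.72%), against 98 and 10. For means of per-cell CPM the size of the ratio alone decided, with no interval, which is a looser rule than in the other settings. Thinning gave 39 of 230 members higher (all genes 2.84%). Of 522 processing genes 27 were then higher (5.17%, all genes 2.84%) and 7 lower (1.34%, all genes 2.09%). With no filter on low counts 153 members were higher (all genes 3.21%) and 21 lower (all genes 1.77%) of 919. Under that setting 118 of 1359 processing genes were higher (8.68%, all genes 3.21%). Means of per-cell CPM gave 27 of 865 processing genes lower (3.12%, all genes 3.72%). Without the shallow clusters, an alternative chosen after seeing the data, 46 of 256 members and 32 of 590 processing genes were higher (all genes 2.87%). The other scalings moved the median of all genes by more than 0.1 on the log2 scale in 10 clusters with TMM (-0.26 to 0.08) and 11 with median-of-ratios (-0.27 to 0.07). All 93 named member ratios kept their direction under TMM, median-of-ratios and without the top cell, 92 of the 92 with a value under stricter limits, 90 of 93 under per-cell means, 79 of 85 under thinning and 89 of 92 without the deepest cells. The sum of all members in lineage cluster 7 came to 1.09 under stricter limits. Under per-cell means the sum in lineage cluster 4 came to 1.53, Col5a2 in cluster 23 to 0.930, Col27a1 in lineage cluster 5 to 0.802 and Col11a1 in lineage cluster 7 to 0.633. Thinned, the sum in cluster 5 came to 0.925, Col26a1 in cluster 15 to 2.96, Col5a2 and Col26a1 in cluster 23 to 0.926 each, Col6a1 in lineage cluster 2 to 0.358, and Col27a1 and Col4a2 in lineage cluster 5 to 0.404 and 0.485. Without the deepest cells Col26a1 and Col18a1 in cluster 15 came to 1.55 and 1.10, the sum in lineage cluster 3 to 0.980 and Col9a2 in lineage cluster 6 to 0.625. The cause of these changes was not tested. No paired analysis was possible because each group had 1 library. Thinning left out 2793 control and 3000 mutant cells, and 7 members with under 200 UMIs are too thinly counted to place.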
